A study of Danio rerio with 4 samples.

Results

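The fibroblast growth factor (Fgf) genes described here are 10 genes of fin outgrowth, 5 encoding secreted ligands and 5 encoding receptors, out of 31901 gene IDs counted. The rule names each gene and sets no threshold on a measured value, but it was written with earlier results of these data known. The ligand genes are both genes with the symbol FGF20 (ENSDARG00000007356 and ENSDARG00000086070), fgf10a (ENSDARG00000030932), fgf24 (ENSDARG00000037677) and fgf3 (ENSDARG00000101540). The receptor genes are both genes with the symbol FGFR1 (ENSDARG00000011027 and ENSDARG00000011190), fgfr2 (ENSDARG00000058115), fgfr3 (ENSDARG00000004782) and fgfr4 (ENSDARG00000069105). All 10 had reads in every library and passed the filter on low counts. The symbols in the name table come partly from human orthologues, so the table does not say which FGF20 or FGFR1 gene is the zebrafish a or b copy, and these 4 genes are given by ID.

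Adult zebrafish (Danio rerio) had their caudal fins amputated, and RNA was sequenced from the tips of the regenerates 96 hours post amputation. One group was longfin heterozygous, a dominant genotype in which the fins overgrow, and the other was homozygous wildtype clutchmates. Fish of both groups carried the sp7:eGFP transgene, in which the promoter of an osteoblast gene drives a green fluorescent protein, and the tissue was cut distal to the fluorescent cells so that it held no visible GFP. Tissue of 4 fins was pooled for each library, so an individual fish cannot be followed, and each genotype had 2 libraries. Nothing states that the pools came from separate clutches or days, and p-values therefore measure only the spread between these pools, which may be technical.

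Fgf ligands are secreted proteins that bind receptor tyrosine kinases at the cell surface together with heparan sulfate, and the bound receptor signals through the adaptor Frs2, Ras and the MAP kinase cascade. In the regenerating zebrafish fin, Fgf signalling is needed to form the blastema, the mass of proliferating mesenchyme under the wound epidermis, and to keep it growing. A mutation in fgf20a, known as dob for devoid of blastema, stops regeneration at its start. Cells that receive the signal switch on Sprouty and Dusp feedback inhibitors and Etv transcription factors.

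Libraries held 19428186 to 23157979 reads in genes, with reads in 23473 to 23966 genes. The gene named in the study's title was checked first: the name table gives the symbol KCNH2 to a pair of genes, of which ENSDARG00000029881 had 7 and 21 reads in the longfin heterozygous libraries against 0 and 1 in wildtype, and ENSDARG00000106473 had 1 and 3 against 4 and 1. Neither KCNH2 gene passed the filter on low counts, so the difference was not tested. Markers of the expected tissue were abundant, with and1, a gene of the fibres of the fin fold, at 8332 to 11487 CPM and the basal keratin gene krt5 at 9094 to 11854 CPM, where CPM is the read count scaled to the size and composition of the library. The osteoblast gene SP7 itself stood at 45.4 to 57.4 CPM although the tissue was cut to exclude cells with visible sp7:eGFP. Other osteoblast markers were also present, with COL10A1 ENSDARG00000054753 at a mean of 2197 CPM and ALPL at 73.6 CPM over all libraries. The bone matrix gene bglap had 0 reads in every library. The osteoblast markers IFITM5, PHEX, ENTPD5 and spp1 had reads, at means of 62.1, 57.7, 46.3 and 14.1 CPM.

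None of the 10 Fgf genes passed an adjusted p of 0.05 between the genotypes by edgeR (quasi-likelihood F test, Benjamini-Hochberg over all 18366 genes tested). Few genes did so at all, 0.403% of those tested, with 0.109% higher and 0.294% lower in longfin heterozygotes. Without adjustment, 1 of the 10 had a p under 0.05, the FGF20 gene ENSDARG00000086070, which was higher in longfin. Over all tested genes 9.48% had such a p, 3.66% as higher and 5.82% as lower. DESeq2, which called 1.58% of all genes after adjustment, called 0 of the 10, and 1 of them had an unadjusted p under 0.05. The genotypes did not overlap in CPM for 2 of the 10, that FGF20 gene and fgf10a, both higher in longfin heterozygotes. Genotypes did not overlap in 39.8% of all tested genes, 20% as higher and 19.8% as lower, so the share among the 10 was not above the background. The fold change was above 1 for 7 of the 10 and for 49.7% of all tested genes. The median log2 fold change of the 10 genes was 0.05, beside a median of 0.00 over all tested genes.

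**Figure D1:**
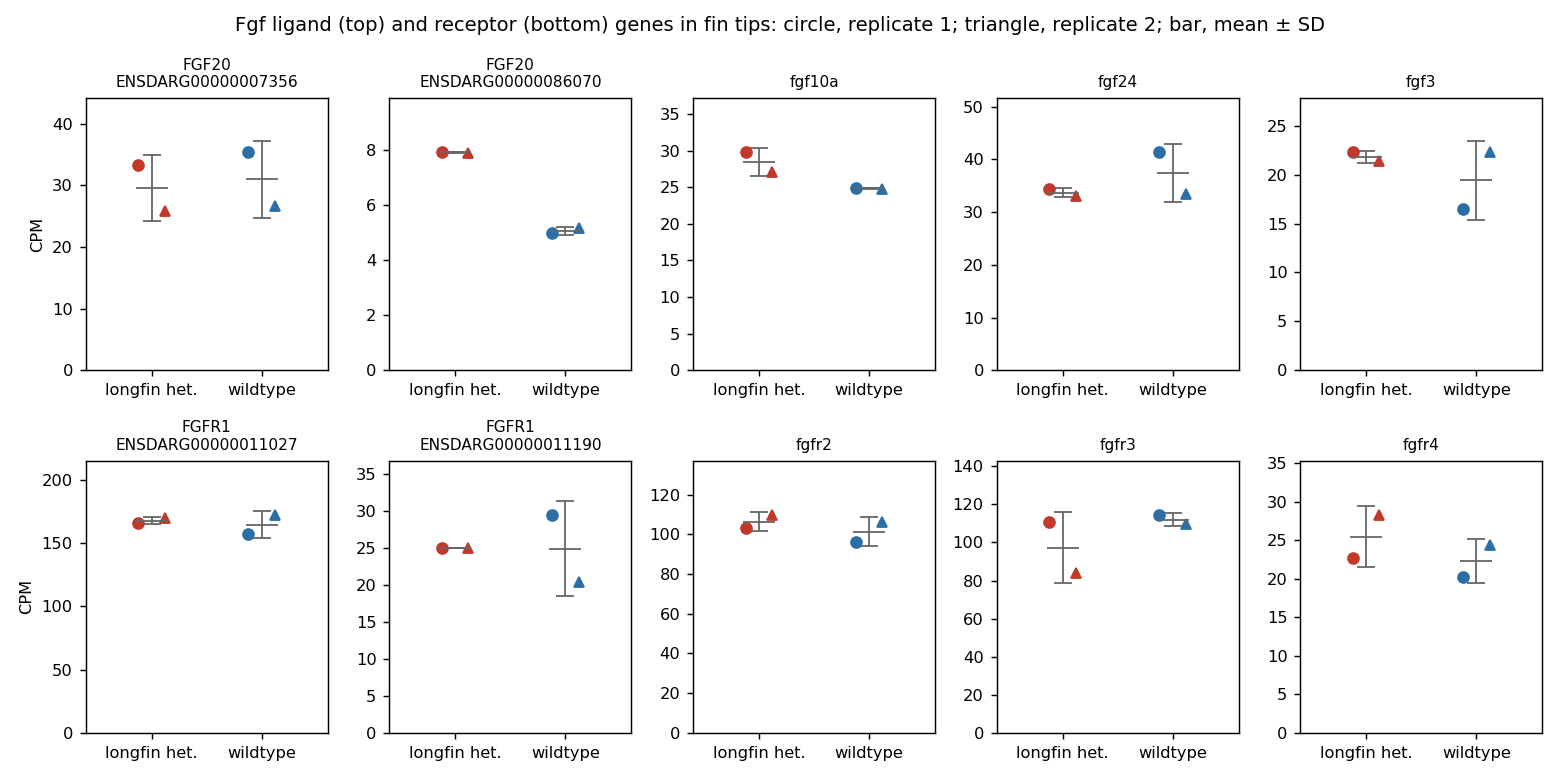
CPM of the 5 ligand genes (top row) and the 5 receptor genes (bottom row) in each library, with longfin heterozygous on the left and wildtype on the right of each panel. Circles are replicate 1, triangles replicate 2, and bars the mean ± SD of 2 libraries; each panel has its own axis from 0, and only FGF20 ENSDARG00000086070 and fgf10a have genotypes that do not overlap.

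Fgf20 ligands act early in fin regeneration, and the pair of genes with that symbol are described first. ENSDARG00000086070 had 176 and 154 reads in longfin heterozygous replicates 1 and 2 and 92 and 124 reads in wildtype replicates 1 and 2. As CPM this was 7.92 and 7.92 in longfin heterozygotes against 4.97 and 5.18 in wildtype. Both longfin values lay above both wildtype values, and the libraries of a genotype lay close together. Longfin heterozygotes averaged 7.92 ± 0.00298 CPM and wildtype 5.07 ± 0.144 CPM (SD over n = 2 each), and the longfin SD is smaller than counting error alone would give at this depth. Its log2 fold change was 0.64 ± 0.17 (SE), or 1.56-fold with a 95% interval of 1.18 to 2.06. The unadjusted p was 0.00727 and the adjusted p 0.285 (edgeR), so the difference did not pass the threshold. Of all tested genes, 2.55% had a smaller p. Under the other settings tried its adjusted p lay between 0.0682 and 0.687.

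The other FGF20 gene, ENSDARG00000007356, had 741 and 501 reads in longfin heterozygotes and 654 and 637 in wildtype. The CPM values were 33.4 and 25.8 in longfin against 35.3 and 26.6 in wildtype. In each genotype replicate 1 stood higher than replicate 2, by more than the genotypes differed, and the genotypes overlapped. Its log2 fold change was -0.06, with a 95% interval of 0.708 to 1.30 as fold change, and it changed sign when either of 2 libraries was left out. The reads of the pair were divided between them as follows. ENSDARG00000086070 supplied 19.2% (95% exact interval 16.7 to 21.9%) and 23.5% (20.3 to 27.0%) of the reads of both genes in longfin heterozygous replicates 1 and 2. In wildtype replicates 1 and 2 it supplied 12.3% (10.1 to 14.9%) and 16.3% (13.7 to 19.1%). The longfin shares were both above the wildtype shares, but the intervals of longfin replicate 1 and wildtype replicate 2 overlapped. The intervals cover counting error only, and with 2 libraries against 2 an exact permutation test cannot give a two-sided p below 0.333. These are shares of reads, not corrected for transcript length, which the sources used here do not give.

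**Figure D2:**
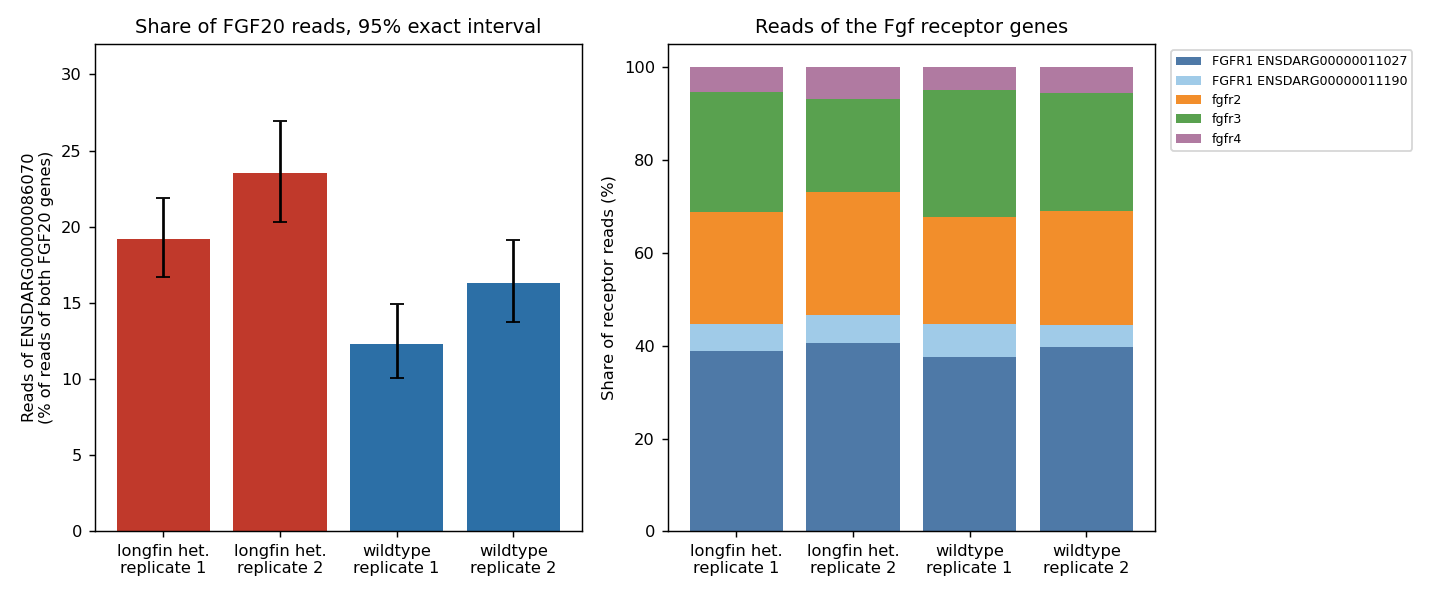
Left, the reads of FGF20 ENSDARG00000086070 as a percentage of the reads of both FGF20 genes in each library, with 95% exact binomial intervals that cover counting error only; the longfin heterozygous bars are at 19.2 and 23.5% and the wildtype bars at 12.3 and 16.3%. Right, the percentage of all reads of the 5 receptor genes that fell in each receptor gene, where fgfr3 makes up 20.2% in longfin heterozygous replicate 2 and 25.3 to 27.4% in the other libraries.

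The gene fgf10a encodes a ligand that in limb and fin buds passes from mesenchyme to the overlying epithelium. It had 661 and 527 reads in longfin heterozygotes and 461 and 593 in wildtype, or 29.8 and 27.1 CPM against 24.9 and 24.8 CPM. Both longfin values were above both wildtype values, by a narrow margin. At 0.20 ± 0.11 (SE), its log2 fold change did not pass (edgeR adjusted p = 0.670), and the 95% interval ran from 0.959 to 1.37 as fold change.

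The gene fgf24 encodes a ligand best known in zebrafish for starting the pectoral fin bud. It had 763 and 643 reads in longfin heterozygotes and 765 and 803 in wildtype. At 34.3 and 33.1 CPM in longfin and 41.3 and 33.5 CPM in wildtype, only wildtype replicate 1 stood apart from the other libraries. The log2 fold change of -0.15 had a 95% interval of 0.734 to 1.11 as fold change (edgeR adjusted p = 0.787), and without wildtype replicate 1 it was 0.01.

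The gene fgf3 encodes a ligand that signals in many embryonic tissues, among them the developing ear and brain. Its reads numbered 495 and 416 in longfin heterozygotes and 306 and 534 in wildtype, which gave 22.3 and 21.4 CPM against 16.5 and 22.3 CPM. Wildtype replicate 1 was again the library apart, this time on the low side, and the other 3 libraries lay together. Its log2 fold change was 0.16 with a 95% interval of 0.862 to 1.46 as fold change (edgeR adjusted p = 0.821). It was -0.03 without wildtype replicate 1 and 0.40 without wildtype replicate 2. Summed over the 5 ligand genes, the level was 128 and 115 CPM in longfin heterozygotes and 123 and 112 CPM in wildtype, with replicate 1 the higher in each genotype.

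Among the receptor genes, FGFR1 ENSDARG00000011027 and fgfr2 had the smallest standard errors of the 10. FGFR1 receptors are expressed in the fin blastema, and blocking them stops fin regeneration in zebrafish. The FGFR1 gene ENSDARG00000011027 had 3682 and 3293 reads in longfin heterozygotes and 2903 and 4119 in wildtype, or 166 and 169 CPM against 157 and 172 CPM. The longfin values lay between the wildtype values. Its log2 fold change was 0.03 ± 0.09 (SE), with a 95% interval of 0.884 to 1.17 as fold change, the narrowest of the 10.

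The other FGFR1 gene, ENSDARG00000011190, had 554 and 485 reads in longfin heterozygotes and 544 and 487 in wildtype. Its CPM was 24.9 in both longfin libraries and 29.4 and 20.3 in wildtype, so the wildtype libraries lay on either side of longfin. The genotypes differed by 0.01 on the log2 scale, with a 95% interval of 0.751 to 1.35 as fold change. Leaving out wildtype replicate 2 took it to -0.24 and leaving out wildtype replicate 1 took it to 0.30. This gene supplied 13.1 and 12.8% of the reads of both FGFR1 genes in longfin heterozygotes, and 15.8 and 10.6% in wildtype replicates 1 and 2. The means were 13.0 ± 0.170% (SD, n = 2) and 13.2 ± 3.68%, a difference smaller than the spread between the wildtype libraries.

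The gene fgfr2 encodes a receptor whose epithelial form binds Fgf7 and Fgf10 in mammals. It had 2291 and 2134 reads in longfin heterozygotes and 1783 and 2550 in wildtype, or 103 and 110 CPM against 96.4 and 106 CPM. The genotypes overlapped, and the log2 fold change of 0.07 had a 95% interval of 0.901 to 1.22 as fold change. With a library left out it lay between 0.00 and 0.14.

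The gene fgfr3 encodes a receptor known in mammals as a brake on the growth of cartilage. Its reads numbered 2456 and 1634 in longfin heterozygotes and 2116 and 2625 in wildtype, which gave 111 and 84.0 CPM against 114 and 110 CPM. Longfin heterozygous replicate 2 was low and the other 3 libraries lay together. At -0.20 ± 0.13 (SE), its log2 fold change did not pass (edgeR adjusted p = 0.727), and the 95% interval ran from 0.696 to 1.09 as fold change. Without longfin heterozygous replicate 2 it was -0.02, and without longfin heterozygous replicate 1 it was -0.41.

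The gene fgfr4 encodes a receptor best known in mammals from the control of bile acid synthesis in liver. It had 504 and 550 reads in longfin heterozygotes and 375 and 583 in wildtype, or 22.7 and 28.3 CPM against 20.3 and 24.3 CPM. Replicate 2 was the higher library in each genotype, and the genotypes overlapped. The log2 fold change was 0.19 with a 95% interval of 0.886 to 1.46 as fold change (edgeR adjusted p = 0.777). For longfin heterozygotes it was 0.34 without replicate 1 and 0.02 without replicate 2, and without wildtype replicate 1 it was 0.07. Summed over the 5 receptor genes, the level was 427 and 416 CPM in longfin heterozygotes and 417 and 433 CPM in wildtype. As shares of receptor reads, which overlapped between genotypes, fgfr2 took 25.3 ± 1.56% (SD, n = 2) in longfin and 23.8 ± 1.07% in wildtype, and fgfr3 took 23.0 ± 4.03% and 26.4 ± 1.47%.

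**Figure D3:**
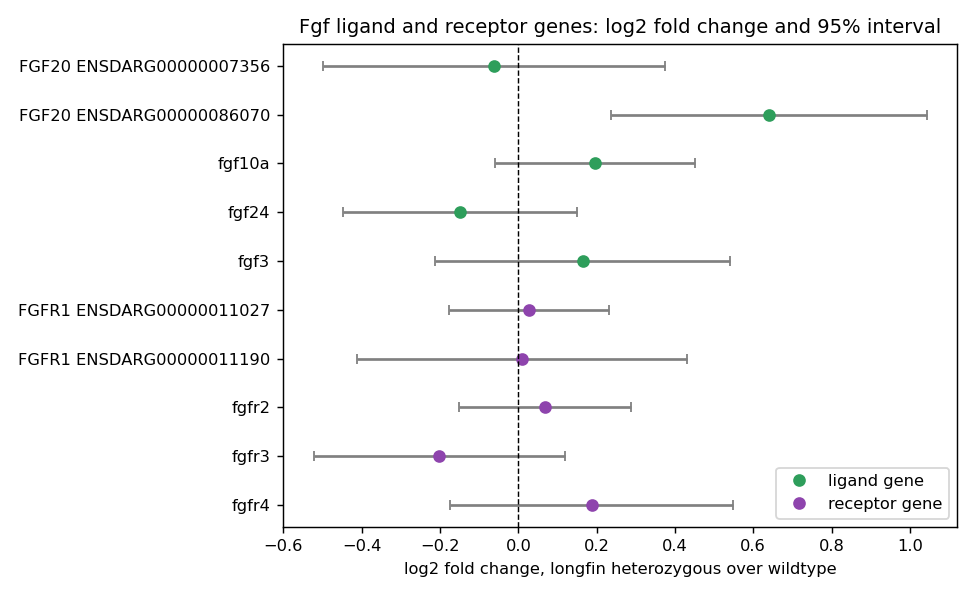
Log2 fold change of longfin heterozygous over wildtype for each ligand gene (green) and receptor gene (purple), with 95% intervals from edgeR's quasi-likelihood fit. The interval of FGF20 ENSDARG00000086070 lies above 0, and the other 9 include 0.

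Of the 7 cell type lists, the summed marker levels of 2 did not overlap between genotypes, which was not tested. Single genes did not overlap in 39.8% of those tested, and no such share was computed for sums over lists. The marker lists were chosen with earlier results of these data known. In bulk tissue a change in the number of cells and a change in the RNA of the marker genes per cell cannot be told apart. Markers of blastema mesenchyme, 21 genes, summed to 25829 and 25866 CPM in longfin heterozygotes against 22109 and 22952 CPM in wildtype, a ratio of 1.15. The separation of these sums depended on and1, the largest part, at 11487 and 10260 CPM in longfin against 8859 and 8332 CPM in wildtype. Without and1 the sums of the list overlapped. Of the 20 tested genes of the list 16 had a log2 fold change above 0, with a median of 0.21, and 0 passed the adjusted threshold. Without adjustment 8 of the 20 had a p under 0.05 as higher and 1 as lower, where 3.66% and 5.82% of all tested genes did. The lower gene was PRRX1 ENSDARG00000033971 (-0.44), while the other PRRX1 gene, ENSDARG00000042027, was at 0.28. The most abundant of this list were and1 (log2 fold change 0.34), FN1 ENSDARG00000006526 (-0.03) and and2 (0.16). Markers of superficial and intermediate epidermis, 16 genes, summed to 11649 and 12657 CPM in longfin against 15433 and 15995 CPM in wildtype, a ratio of 0.773. Their median log2 fold change was -0.34, and 2 of 16 tested genes passed as lower in edgeR, where 0.294% of all tested genes did. These were the desmosomal plakophilin gene pkp3a (log2 fold change -1.05, edgeR adjusted p = 0.00908) and the annexin gene ANXA1 (-0.61, edgeR adjusted p = 0.0383). The keratin genes krt91 and krt4 and the gene icn, the most abundant of that list, had log2 fold changes of -0.35, -0.22 and -0.26. Markers of basal epidermis, 17 genes, overlapped between genotypes, with sums of 18850 and 19425 CPM in longfin and 18758 and 20439 CPM in wildtype. Its most abundant genes, krt5, FREM2 ENSDARG00000102626 and col17a1b, were at -0.14, 0.08 and 0.05.

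Divided by the blastema marker sum of the same library, a measure chosen after the values were seen, FGF20 ENSDARG00000086070 stood at 0.307 and 0.306 per 1000 CPM of blastema markers in longfin heterozygotes and at 0.225 and 0.226 in wildtype. The longfin values were still both higher, with a log2 ratio of 0.44 in place of 0.64. For fgf10a the same measure gave 1.15 and 1.05 in longfin against 1.13 and 1.08 in wildtype, which overlapped. The marker sum, of which and1 was the largest part, was itself higher in longfin, which lowers each longfin ratio. By this measure 4 genes were lower in longfin without overlap, with log2 ratios of -0.40 for fgfr3, -0.35 for fgf24, -0.17 for FGFR1 ENSDARG00000011027 and -0.13 for fgfr2. In CPM alone each of these 4 overlapped between genotypes. For fgfr3 and fgf24 the separation by this measure also depended on and1 being part of the marker sum. For FGFR1 ENSDARG00000011027 and fgfr2 it did not. The share of all tested genes without overlap by this measure was not computed, so the count of 4 has no background to be set against.

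The summed levels of the markers of the remaining cell types overlapped between genotypes. Osteoblast and joint markers, 15 genes, summed to 2359 and 2739 CPM in longfin and 2512 and 3315 CPM in wildtype, with 0 of 13 tested genes past the threshold. The most abundant were both COL10A1 genes, ENSDARG00000054753 and ENSDARG00000101535, at -0.21 and -0.30, and ALPL at -0.07. Endothelium and red blood cell markers, 9 genes, summed to 125 to 175 CPM over the 4 libraries, and leukocyte markers, 17 genes, to 228 to 287 CPM. The most abundant were the globin gene hbaa1 (log2 fold change -0.02), FLI1 (0.24) and alas2 (-0.37), and MPEG1 ENSDARG00000055290 (-0.05), LCP1 (0.12) and csf1ra (-0.27). Nerve, glia and pigment cell markers, 11 genes, summed to at most 7.16 CPM, and the myelin gene plp1b had 0 reads in every library. The tested ones, pmela, TYRP1 ENSDARG00000056151 and ELAVL3, were at -0.26, -0.10 and 1.01. None of these 3 lists had a gene past the adjusted threshold. Genotypes did not overlap, as higher in longfin, for 2 of 9 tested endothelium and red blood cell markers, among them FLI1. The same held for 1 of 3 tested nerve, glia and pigment cell markers, ELAVL3. As lower in longfin it was 3 of 10 tested leukocyte markers, among them csf1ra. Over all tested genes the shares were 20% as higher and 19.8% as lower. The part of any cell type in the Fgf values was not tested.

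The other Fgf ligand genes gave the wider setting for the 5 ligands above. Of 19 other secreted ligand genes, 9 passed the filter and 0 passed the adjusted threshold. Of the 9, 1 had an unadjusted p under 0.05, as higher, where 3.66% of all tested genes did. Genotypes did not overlap for 2 of the 9, FGF4 and FGF16, both higher in longfin, where 20% of all tested genes were higher without overlap. Log2 fold changes of the 9 ran from -0.40 to 1.13 with a median of 0.20, and 3 genes of the 19 (FGF5, FGF6 ENSDARG00000045856 and fgf23) had 0 reads. The gene with an unadjusted p under 0.05 was FGF4, a ligand of the limb bud's ectodermal ridge in mammals. It had 246 and 143 reads in longfin heterozygotes and 83 and 96 in wildtype. As CPM these were 11.1 and 7.35 against 4.49 and 4.01, so both longfin libraries were higher although they differed from each other. Its log2 fold change was 1.13 ± 0.24 (SE), which did not pass (edgeR unadjusted p = 0.00254, adjusted p = 0.178). FGF16, of the same subfamily as FGF20, had 8.60 and 9.10 CPM against 5.24 and 7.93 CPM, or 0.41 as log2 fold change (adjusted p = 0.657). The genes fgf2, FGF10 ENSDARG00000100475 and FGF18 ENSDARG00000088048 overlapped between genotypes, at 0.12, 0.20 and -0.13.

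**Figure D4:**
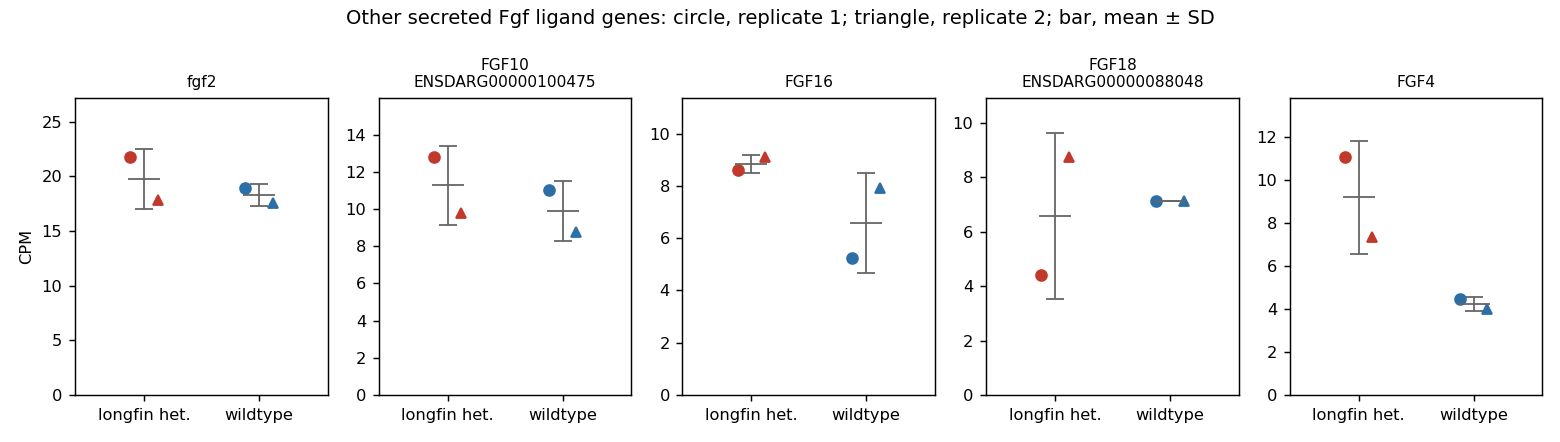
CPM of the 5 most abundant other secreted Fgf ligand genes in each library, with circles for replicate 1, triangles for replicate 2 and bars for the mean ± SD of 2 libraries; each panel has its own axis from 0. FGF4 stands at 11.1 and 7.35 CPM in longfin heterozygous against 4.49 and 4.01 CPM in wildtype, and FGF16 is the other gene without overlap.

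The intracellular Fgf homologous factors, which bind sodium channels and activate no receptor, were low, with sums of 7.46 to 10.4 CPM over 7 genes. Of 5 tested, 0 passed the adjusted threshold or an unadjusted p of 0.05. The median log2 fold change was -0.59, with FGF13 ENSDARG00000035056 at -0.02, FGF11 at 0.30 and FGF12 ENSDARG00000113525 at -0.62.

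Proteins that help or limit binding at the receptor were examined next. Of 22 co-receptor and binding protein genes, 16 were tested and 0 passed, with a median log2 fold change of 0.04. At an unadjusted p under 0.05 there was 1 as higher, FLRT3 (log2 fold change 0.26, edgeR adjusted p = 0.445), and 1 as lower, sdc4. Over all tested genes these shares were 3.66% and 5.82%. The most abundant were the heparan sulfate proteoglycan genes HSPG2 at 0.12, sdc4 at -0.26 and GPC4 at 0.10. The syndecan gene sdc4 had 136 and 142 CPM in longfin against 169 and 164 CPM in wildtype, without overlap, and did not pass (edgeR adjusted p = 0.367). The Klotho co-receptor gene klb had 0 reads in every library, and KL had 0 or 1 read. Of 20 genes for enzymes that build or edit heparan sulfate, 18 were tested and 0 passed, with a median log2 fold change of -0.01. Without adjustment 2 of the 18 had a p under 0.05, both higher, where 3.66% of all tested genes had such a p as higher. These were GLCE ENSDARG00000068981 at 0.32 and HS2ST1 ENSDARG00000099478 at 0.40. SULF2, SULF1 and EXT2, the most abundant, were at -0.08, -0.14 and 0.01.

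Inside the cell, 30 of 31 genes of adaptors, Ras proteins and kinases that carry the receptor signal were tested and 0 passed, with a median log2 fold change of 0.01. Without adjustment, 1 had a p under 0.05 as higher and 2 as lower. ARAF, MAPK3 and MAP2K2, the most abundant, were at 0.00, -0.10 and -0.11. The targets and feedback inhibitors of the pathway had a higher median, at 0.23 over 15 tested genes of 17, and 13 of the 15 were above 0. None passed the adjusted threshold, and without adjustment 5 of the 15 had a p under 0.05 as higher and 1 as lower, where 3.66% and 5.82% of all tested genes did; the list was chosen with such results known. DUSP6, ETV4 and IL17RD, the most abundant, were at 0.04, 0.16 and 0.23. Genotypes did not overlap for 10 of the 15 as higher in longfin and for 1 as lower, where over all tested genes the shares were 20% and 19.8%. The Sprouty feedback inhibitor genes SPRY1, SPRY2 and SPRY4 and the phosphatase gene DUSP2, named after their values were seen, were at 0.68, 0.62, 0.59 and 1.37, with edgeR adjusted p-values of 0.156, 0.107, 0.0872 and 0.206. SPRY4 had 100 and 95.8 CPM in longfin against 69.6 and 60.5 CPM in wildtype. The gene lower without overlap was the phosphatase gene DUSP5, at -0.75 (edgeR unadjusted p = 0.0369, adjusted p = 0.480). DUSP5 had 30.7 and 41.5 CPM in longfin against 74.2 and 47.2 CPM in wildtype. The phosphatase gene DUSP4, also below 0, was at -0.10. The summed level of the 17 genes, of which DUSP6 was the largest part, was 1758 and 1502 CPM in longfin heterozygotes and 1528 and 1310 CPM in wildtype, which overlapped. Over the 6 lists of Fgf pathway genes together, 93 of 116 genes were tested and 0 passed in edgeR, while 10 of the 93 had an unadjusted p under 0.05 as higher and 4 as lower, beside 3.66% and 5.82% of all tested genes.

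**Figure D5:**
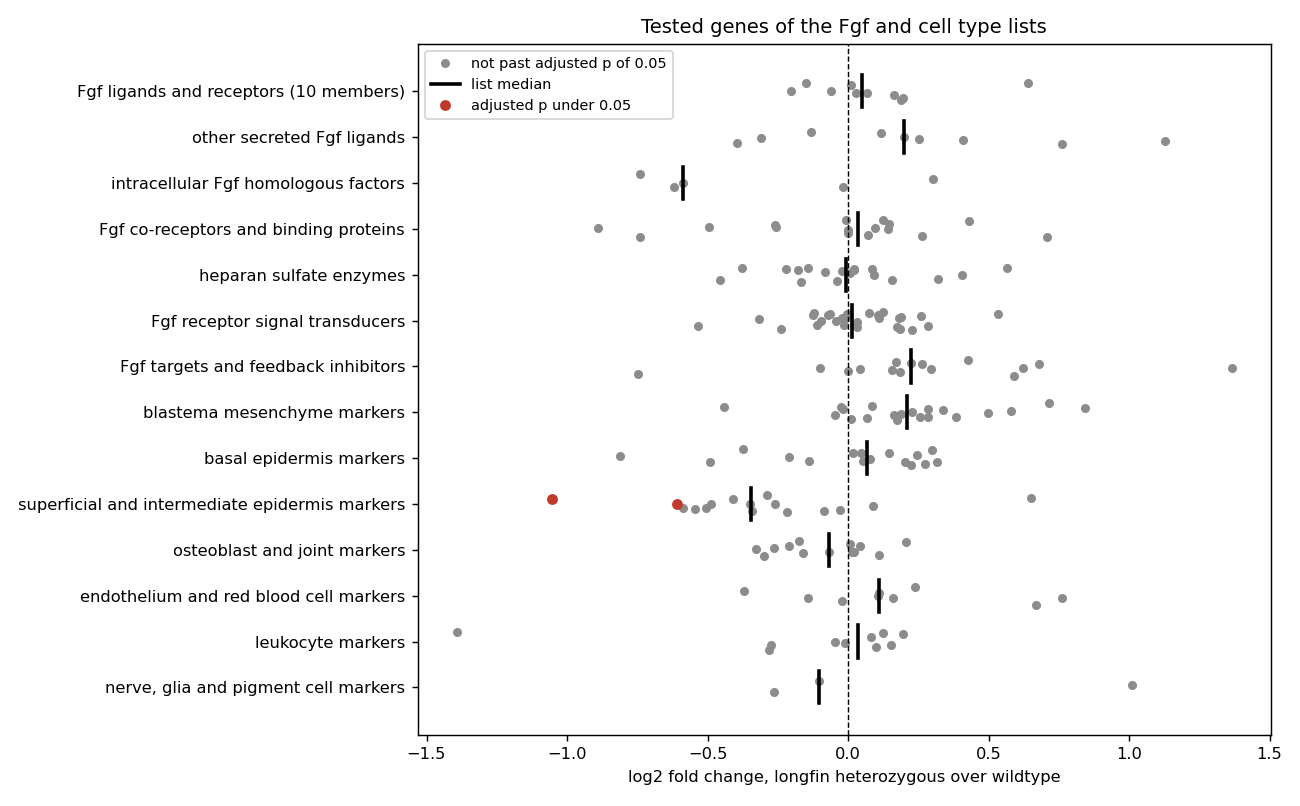
Log2 fold change of longfin heterozygous over wildtype for the tested genes of the 10 Fgf ligands and receptors (top), the 6 lists of other Fgf pathway genes and the 7 lists of cell type markers. Each point is a gene, the black bar is the list median, and red marks the genes past an adjusted p of 0.05, which are pkp3a and ANXA1 in the superficial and intermediate epidermis list.

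Likeness of pattern was measured as the Euclidean distance between log2 CPM profiles over the 4 libraries, each centred on its own mean, among the 93 tested Fgf pathway genes. It was computed for the 3 Fgf genes with the lowest p. Nearest to FGF20 ENSDARG00000086070 was FRS2 ENSDARG00000037353, which encodes the adaptor that links Fgf receptors to Ras, at a distance of 0.109, and then the feedback inhibitor gene SPRY4 at 0.193, where the median distance was 0.641. Nearest to fgf10a were the transcription factor gene etv5b at 0.0885 and the adaptor gene GAB1 at 0.108, with a median of 0.313. Nearest to fgfr3 were the heparan sulfate sulfotransferase gene NDST1 ENSDARG00000062397 at 0.138 and the kinase gene MAP2K1 at 0.163, with a median of 0.446. This NDST1 gene had few reads, 61 and 38 in longfin heterozygotes and 47 and 66 in wildtype. The more abundant NDST1 gene, ENSDARG00000103606, had a log2 fold change of -0.04. Only Fgf pathway genes were compared, so each nearest gene had to be one of them, and distances to the other tested genes were not computed. With 4 libraries such distances describe these libraries only.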

How the data were processed

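Libraries of 2 longfin heterozygous and 2 wildtype pools were grouped by title. TopHat2 and HTSeq with GRCz11 (danRer11) are named in the submitters' processing notes; versions, annotation release and strand setting: not given in the sources used here. Overlapping or antisense genes are therefore uncertain. The files deposited by the authors hold raw counts of reads per gene, with no normalization. The unnamed total row and the HTSeq classes were left out. Of all counts in genes and HTSeq classes together, 28.7 to 41.9% were in the class not uniquely aligned, 7.78 to 9.31% outside genes and 1.08 to 1.38% ambiguous. These are shares of counts, which need not be shares of reads. The highest share not uniquely aligned, 41.9%, was that of wildtype replicate 1, which also had the lowest TMM scaling factor, 0.945. Libraries of a genotype were not copies of each other (chi-square per degree of freedom 15.4 in longfin, 22.2 in wildtype).

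Genes passing filterByExpr (minimum count 10, total 15) were fitted in R 4.3.3 with edgeR 4.0.16 (TMM, robust glmQLFit without legacy fitting, two-sided glmQLFTest, no replicate term), adjusted by Benjamini-Hochberg over 18366 genes, threshold 0.05. The fit was tested on simulated data, which had larger fold changes than the Fgf ligand and receptor genes described and less spread than these libraries. SE was taken as the size of the log2 fold change over the root of F, with 95% intervals. Log2 profiles used a prior count of 2. Alternatives were other scalings and filters, DESeq2 1.42.0, limma 3.58.1 voom, a replicate block and leaving out each library.

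The 10 genes and the lists were chosen with earlier results of these data known. Of 213 list entries, 8 were unmatched and 59 matched by human symbol, which can bring in both zebrafish copies. Named genes were the 10, in each list any past the threshold and the 3 of highest CPM (5 for the other secreted ligands), and the 2 nearest patterns; others are markers read as a check, the members of a small count, or said to be chosen after their values were seen. Coordinates, transcript lengths and sequences were not used here.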

Additional observations from a re-analysis of the deposited data

How the results depend on the processing

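The count of Fgf ligand and receptor genes past the threshold was 0 under each of the 12 alternatives, while at an unadjusted p under 0.05 it was 1 or 2. The FGF20 gene ENSDARG00000086070 had a log2 fold change of 0.61 to 0.67 and an unadjusted p of 0.00351 to 0.0335 over all of them. The count of all genes past the threshold, 74, was 219 with library size only, 130 with no low count filter and 291 with DESeq2, and 1 to 163 with a library left out (for longfin heterozygous, 3 without replicate 1 and 1 without replicate 2; for wildtype, 163 without replicate 2); the cause was not tested. With the replicate number as a block it was 794 and the Fgf count stayed at 0, with an adjusted p of 0.0682 for FGF20 ENSDARG00000086070 and 0.248 for fgfr3. The numbers are not stated to pair the pools, and same-numbered libraries deviated together with a correlation of 0.233 across genes, which are not independent. Of 120 recomputed log2 fold changes of the 10 genes, 6 changed sign, each with a library left out. The leave-one-out ranges were -0.26 to 0.15 for FGF20 ENSDARG00000007356 (0.11 without longfin heterozygous replicate 2, 0.15 without wildtype replicate 1), -0.29 to 0.0086 for fgf24, -0.029 to 0.40 for fgf3, -0.037 to 0.10 for FGFR1 ENSDARG00000011027 and -0.24 to 0.30 for FGFR1 ENSDARG00000011190. Each gene's depth was 92 to 4119 reads per library, and half-widths of the 95% intervals lay between 1.15-fold and 1.35-fold, with 2 libraries per genotype. Differences within them were not detectable, and larger ones could also miss the adjusted threshold. FGF20 ENSDARG00000086070 did so at 1.56-fold (edgeR adjusted p = 0.285).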

Other observations

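The FRS2 symbol, which marks the adaptor between Fgf receptors and Ras, was carried by 2 counted genes with log2 fold changes of opposite sign, and the second is named after its values were seen. FRS2 ENSDARG00000037353 had 19.1 and 19.2 CPM in longfin heterozygotes against 12.6 and 13.8 CPM in wildtype, or 0.53 as log2 fold change (edgeR adjusted p = 0.206). FRS2 ENSDARG00000045873 had 6.71 and 6.17 CPM against 10.1 and 8.64 CPM, or -0.53 as log2 fold change (edgeR adjusted p = 0.387). The genotypes did not overlap for either gene, where 39.8% of all tested genes did not overlap (20% as higher, 19.8% as lower). Of the 30 tested genes of adaptors, Ras proteins and kinases, FRS2 among them, 10 did not overlap as higher and 6 as lower. Neither FRS2 gene passed the threshold, and the difference between the 2 genes was not tested.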
